A study of Homo sapiens with 12 samples.

Results

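The acid-lowered genes described here are PRSS35, LINC00882, FGFBP1, RAB17, ALPP, RELN, MAP2, ESR2, MYH15 and RANBP3L, 10 of the 60664 genes in the count table. They were chosen by name, because earlier results of these data had shown large falls in acid medium, and all 10 were among the 17544 genes with enough reads to be tested. Messenger RNA was sequenced from MDA-MB-231, an established human triple-negative breast cancer line of wild-type genotype. Flasks grown at pH 7.4 were changed to a medium of pH 6.4, pH 6.9 or pH 7.4 and harvested after 24 h. Each pH had 4 libraries, numbered as repeats 1 to 4. The sample labels name the intermediate medium pH 6.9, whereas the treatment protocol gives pH 6.7 for it. The label is used here, and the question asked of each gene was how much of its fall had already been reached in that medium.

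Every value of these genes in the 3 media bears on how they were chosen. Their falls are therefore given as descriptions without p-values, and p-values are kept for genes outside the set. Counts of members that were called, or whose libraries did not overlap, restate the choice and are no tests of the members. The study used a single cell line, and the labels do not state that repeats were separate cultures, so p-values measure the spread between these libraries. Total counts ran from 21060767 to 50643233 per library. Repeat 1 at pH 7.4 had reads in 17841 genes and repeat 2 at pH 6.9 in 21628, against 23113 to 27384 in the other 10 libraries.

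Tumours are often acidic because cancer cells export protons and lactate and are poorly perfused. A cell that meets acid medium lets its cytosol drift in the same direction and then changes the levels of many messenger RNAs, by transcription or by RNA decay, which counts of steady-state RNA do not separate. The 10 genes belong to unrelated families. FGFBP1, PRSS35 and RELN encode secreted proteins, ALPP encodes an enzyme held on the outer membrane, RAB17 acts in vesicle traffic, MAP2 and MYH15 belong to cytoskeletal families, ESR2 and RANBP3L act in the nucleus, and LINC00882 is a long noncoding RNA.

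The windows before the start sites are shown for the 3 genes that had fallen most by pH 6.9 and for the 2 with the smallest fall there. They are the 250 bases upstream of the RefSeq start on GRCh38.p14, 5′ to 3′ on the gene's strand, at chr6:83512284-83512533 (+) for PRSS35, chr3:107240639-107240888 (−) for LINC00882, chr4:15938741-15938990 (−) for FGFBP1, chr3:108510597-108510846 (−) for MYH15 and chr5:36301903-36302152 (−) for RANBP3L. Capitals mark matches, on either strand, to 8 short motifs named after the sequences.
PRSS35: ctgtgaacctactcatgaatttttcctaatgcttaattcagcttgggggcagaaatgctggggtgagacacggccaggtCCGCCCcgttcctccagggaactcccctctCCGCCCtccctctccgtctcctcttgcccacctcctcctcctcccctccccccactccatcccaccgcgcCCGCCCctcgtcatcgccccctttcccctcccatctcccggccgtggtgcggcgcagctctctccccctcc
LINC00882: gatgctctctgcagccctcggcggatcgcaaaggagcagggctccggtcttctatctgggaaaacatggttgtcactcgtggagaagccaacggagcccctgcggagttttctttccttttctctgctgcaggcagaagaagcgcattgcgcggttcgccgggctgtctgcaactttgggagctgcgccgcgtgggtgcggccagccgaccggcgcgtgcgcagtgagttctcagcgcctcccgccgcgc
FGFBP1: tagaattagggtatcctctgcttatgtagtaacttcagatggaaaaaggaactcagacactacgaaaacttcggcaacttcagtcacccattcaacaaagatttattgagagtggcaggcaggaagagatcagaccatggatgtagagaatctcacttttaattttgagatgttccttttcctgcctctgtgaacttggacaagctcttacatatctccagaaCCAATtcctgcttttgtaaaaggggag
MYH15: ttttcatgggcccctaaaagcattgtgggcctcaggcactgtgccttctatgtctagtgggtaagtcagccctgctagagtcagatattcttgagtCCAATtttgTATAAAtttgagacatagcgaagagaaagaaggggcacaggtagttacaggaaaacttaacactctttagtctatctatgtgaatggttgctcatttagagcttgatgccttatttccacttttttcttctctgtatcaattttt
RANBP3L: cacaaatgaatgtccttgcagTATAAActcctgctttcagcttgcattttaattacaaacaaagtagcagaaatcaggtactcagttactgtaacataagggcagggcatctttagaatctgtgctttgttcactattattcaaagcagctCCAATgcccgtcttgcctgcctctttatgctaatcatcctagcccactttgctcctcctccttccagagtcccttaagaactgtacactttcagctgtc

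The motifs searched were the TATA box in its form TATAAA, the element CCAAT, the GC box in its form GGGCGG, the AP-1 motif TGANTCA, the cyclic AMP response element TGACGTCA, the E-box in its form CACGTG, the composite C/EBP and ATF site TGATGNAAT, and the palindromic oestrogen response element. For each gene the first start site that the table lists was read. TATAAA was present in MYH15 and RANBP3L and in no other member, against 11.1% of 27305 genes. CCAAT was present in both of these, in FGFBP1 and in ESR2, against 33% of genes. PRSS35 held 3 GGGCGG matches, and RELN and ESR2 held 6 each, against at least 1 in 42.3% of genes. CACGTG was found in RELN, against 6.49% of genes. The AP-1 motif (6.6% of genes), the cyclic AMP response element (1.77%), the C/EBP and ATF site (0.916%) and the oestrogen response element (0.0439%) were in none of the 10 windows. No matches overlapped in the windows printed. A match was counted at any position, and TATAAA lay nearer the upstream end than the start site in both MYH15 and RANBP3L. Whether any match acts was not tested. GC content ran from 40% in MYH15 to 83.2% in RELN, around a median of 58% over all genes, and 5 members lay above that median. LINC00882 had 25 CpG pairs in its window and PRSS35 had 14, while FGFBP1 had 2 and MYH15 and RANBP3L had 1 each, against a median of 11 over all genes. The windows of MYH15, MAP2 and RAB17 lie wholly inside the longer gene bodies that GENCODE gives for them.

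Levels are given as CPM, counts scaled to a common library size, with the SD over the 4 libraries of a medium. PRSS35, a secreted relative of trypsin-like serine proteases that lacks the catalytic serine, had 1.85, 1.34, 2.64 and 0.856 CPM in repeats 1 to 4 at pH 6.4. At pH 6.9 it had 7.62, 4.58, 6.42 and 6.08 CPM, and at pH 7.4 it had 38.1, 21.6, 48.3 and 39.3 CPM. The media did not overlap at any step. Over n = 4 libraries each, the mean and SD were 1.67 ± 0.762 CPM at pH 6.4, 6.18 ± 1.25 CPM at pH 6.9 and 36.8 ± 11.1 CPM at pH 7.4, so 4.62% of its pH 7.4 level was left at pH 6.4 and 16.8% at pH 6.9. On the log2 scale it was lower by a fitted -4.44 (SE 0.32) at pH 6.4 and -2.57 (SE 0.28) at pH 6.9, both against pH 7.4. In a bulk sample, fewer cells that express a gene and less of its RNA per cell cannot be told apart.

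The share of a fall reached at pH 6.9 is given as the log2 change of pH 6.9 against pH 7.4 divided by that of pH 6.4 against pH 7.4. Both changes use the same pH 7.4 libraries. A gene that fell evenly with pH on the log scale would have a share of 50% if the intermediate medium was pH 6.9, and of 70% if it was pH 6.7. PRSS35 had reached 58.0% of its log2 fall, with 49.3% to 65.6% when each pH 6.9 library was taken alone. Counted in CPM, 87.2% of its lost RNA was already gone at pH 6.9.

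LINC00882 had 0.878, 0.626, 0.565 and 0.308 CPM at pH 6.4, 1.73, 1.05, 1.15 and 1.18 CPM at pH 6.9, and 9.0, 4.80, 10.3 and 9.03 CPM at pH 7.4. No library of one medium reached the range of another. Its log2 change was -3.77 (SE 0.32) at pH 6.4 and -2.68 (SE 0.30) at pH 6.9, which made it 13.6-fold and 6.42-fold lower than at pH 7.4. It had thus reached 71.2% of its log2 fall at pH 6.9, and 91.1% in CPM. FGFBP1, a secreted carrier that frees fibroblast growth factors from the matrix, had 0.317, 0.388, 0.448 and 0.411 CPM at pH 6.4, 1.37, 0.873, 1.55 and 0.842 CPM at pH 6.9, and 6.76, 5.69, 4.75 and 4.04 CPM at pH 7.4. Again the 3 media kept apart. FGFBP1 was 13.5-fold lower at pH 6.4 and 4.6-fold lower at pH 6.9 than at pH 7.4, with 58.6% of the log2 fall reached at pH 6.9. In the main fit LINC00882, PRSS35 and FGFBP1 were the only 3 of the 17544 genes that were called lower and at least 4-fold lower at pH 6.9. At pH 6.4, 166 genes, 8 of them members, met the same bounds. The members were chosen for large falls in acid medium, which may include pH 6.9, so this standing is a description.

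**Figure D1:**
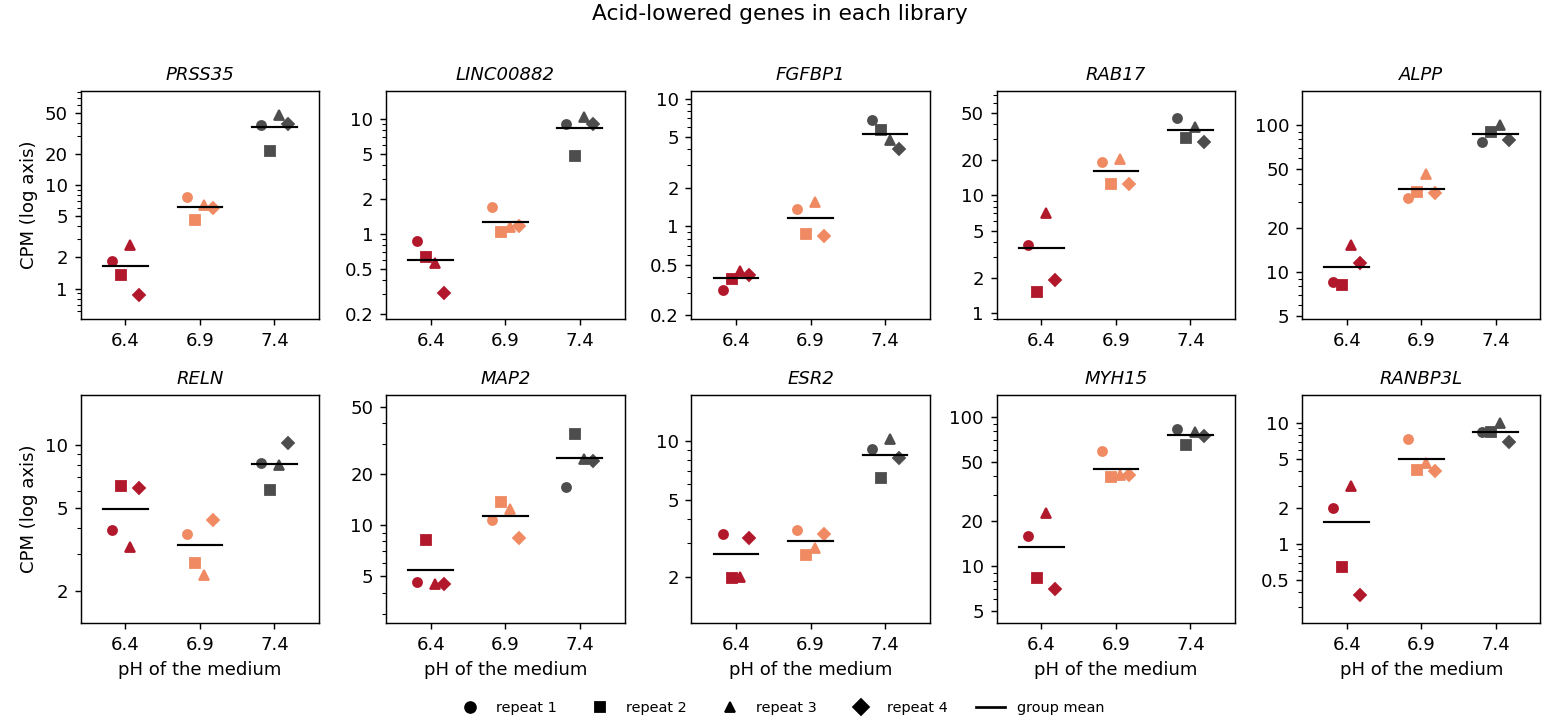
CPM (scaled counts, log axis) of the 10 acid-lowered genes in each of the 12 libraries, by pH of the medium, with symbols for repeats 1 to 4 and a bar at each group mean. PRSS35, LINC00882 and FGFBP1 have the largest falls at pH 6.9 and are lower still at pH 6.4. MYH15 and RANBP3L fall mainly at pH 6.4, and RELN is lowest at pH 6.9.

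RAB17, a small GTPase of recycling and transcytosis in polarised epithelial cells, had 3.80, 1.51, 7.11 and 1.92 CPM at pH 6.4. It had 19.2, 12.4, 20.3 and 12.3 CPM at pH 6.9, against 45.0, 30.8, 37.6 and 28.5 CPM at pH 7.4. Repeat 3 stood above the other pH 6.4 libraries, yet below every pH 6.9 library. RAB17 was 9.80-fold lower at pH 6.4 and 2.21-fold lower at pH 6.9 than at pH 7.4, so 34.8% of its log2 fall lay above pH 6.9 and the larger step came below it, where pH 6.4 was 4.43-fold lower than pH 6.9. ALPP, the placental alkaline phosphatase, a phosphate-releasing enzyme anchored to the cell surface, had 8.56, 8.09, 15.3 and 11.5 CPM at pH 6.4, 32.1, 35.0, 46.7 and 34.4 CPM at pH 6.9, and 76.4, 89.5, 101 and 79.7 CPM at pH 7.4. Its media did not overlap either, and it was 7.97-fold lower at pH 6.4 and 2.34-fold lower at pH 6.9 than at pH 7.4. ALPP had reached 41.0% of its log2 fall at pH 6.9, and 65.5% in CPM.

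MYH15, a myosin heavy chain known from eye muscles, kept more of its RNA in the intermediate medium. It had 15.9, 8.29, 22.5 and 7.06 CPM at pH 6.4, 58.6, 39.4, 40.7 and 40.6 CPM at pH 6.9, and 82.6, 65.0, 78.6 and 74.1 CPM at pH 7.4. The media did not overlap, and repeat 1 stood above the other pH 6.9 libraries. MYH15 was 5.56-fold lower at pH 6.4 but 1.67-fold lower at pH 6.9 than at pH 7.4, and 30.0% of the log2 fall had been reached. RANBP3L, a RAN-binding protein that exports the SMAD proteins of bone morphogenetic protein signalling from the nucleus, had 1.98, 0.647, 3.02 and 0.377 CPM at pH 6.4, 7.31, 4.05, 4.65 and 4.03 CPM at pH 6.9, and 8.39, 8.46, 10.1 and 6.98 CPM at pH 7.4. The highest pH 6.9 library, repeat 1, lay inside the pH 7.4 range, and all pH 6.4 libraries lay below both. RANBP3L changed by -2.47 (SE 0.45) at pH 6.4 and by -0.75 (SE 0.42) at pH 6.9 on the log2 scale, and its share of 30.4% ran from 7.0% to 36.8% over single pH 6.9 libraries. The estimates for RANBP3L carried the largest SE of the set.

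MAP2, which stabilises microtubules in dendrites, had 4.63, 8.13, 4.50 and 4.49 CPM at pH 6.4, 10.7, 13.6, 12.4 and 8.42 CPM at pH 6.9, and 16.8, 34.5, 24.4 and 23.7 CPM at pH 7.4. The media did not overlap, although the highest pH 6.4 library came close to the lowest at pH 6.9. MAP2 was 4.56-fold lower at pH 6.4 and 2.20-fold lower at pH 6.9 than at pH 7.4, and its share of 52.1% was the nearest of the 10 to the 50% of an even fall at pH 6.9. The share nearest to the 70% of an even fall at pH 6.7 was that of LINC00882. Leaving out 1 library at a time put the share of MAP2 between 46.4% and 56.9%.

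In ESR2 and RELN the libraries of pH 6.4 overlapped those of pH 6.9. ESR2, oestrogen receptor beta, had 3.32, 1.96, 2.00 and 3.19 CPM at pH 6.4, 3.48, 2.58, 2.81 and 3.34 CPM at pH 6.9, and 9.17, 6.49, 10.2 and 8.25 CPM at pH 7.4. Both acid media lay below every pH 7.4 library. ESR2 was 3.27-fold lower at pH 6.4 and 2.78-fold lower at pH 6.9 than at pH 7.4, with 86.5% of the log2 fall reached at pH 6.9. RELN, the secreted glycoprotein that positions migrating neurons, had 3.93, 6.32, 3.25 and 6.23 CPM at pH 6.4, 3.74, 2.72, 2.38 and 4.34 CPM at pH 6.9, and 8.16, 6.10, 8.01 and 10.2 CPM at pH 7.4. Over n = 4 libraries each, RELN averaged 4.93 ± 1.58 CPM (SD) at pH 6.4, 3.30 ± 0.907 CPM at pH 6.9 and 8.12 ± 1.68 CPM at pH 7.4, so its lowest mean was in the intermediate medium. RELN had 60.7% of its pH 7.4 level left at pH 6.4 and 40.7% at pH 6.9. Its share came to 179.7%, from 117% to 231% over single pH 6.9 libraries. The pH 6.4 libraries of RELN overlapped those of both other media.

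The word silenced therefore fits the set unevenly. LINC00882 and FGFBP1 averaged under 1 CPM at pH 6.4, and no member was without reads in any library, the lowest single count being 9. ESR2 kept 30.6% and MAP2 22.0% of the pH 7.4 level at pH 6.4, while RAB17 kept 10.2% and ALPP 12.6%. Per kilobase of annotated exon, which allows genes to be compared, the order at pH 6.4 began with ALPP at 3.56 CPM per kb, MYH15 at 1.75 and RAB17 at 0.750. PRSS35 stood at 0.685 CPM per kb at pH 6.4, at 2.53 at pH 6.9 and at 15.1 at pH 7.4, where ALPP alone, at 28.3, was above it. MAP2 and LINC00882 were level at pH 7.4, with 2.15 and 2.14 CPM per kb, and LINC00882 was the lowest of the set at pH 6.4 with 0.153.

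Over the 10 genes the libraries of pH 6.4 lay wholly below those of pH 7.4 in 9, RELN being the exception, where 13.5% of all tested genes showed this. The pH 6.9 libraries lay wholly below those of pH 7.4 in 9, RANBP3L being the exception, against 4.91% of tested genes. Between pH 6.4 and pH 6.9 the count was 8, without RELN and ESR2, against 10.8%. With edgeR's quasi-likelihood test at an adjusted p under 0.05, all 10 were called lower at pH 6.4 than at pH 7.4, where 14.7% of tested genes were, and 7 at pH 6.9, where 0.41% were. RAB17, MYH15 and RANBP3L were the 3 not called at pH 6.9. From pH 6.9 to pH 6.4 a fall was called in 8, with 8.2% of genes called lower, and RELN and ESR2 were not among them. These counts restate how the genes were chosen. With 1 library left out at a time they ran from 9 to 10 at pH 6.4, from 5 to 8 at pH 6.9 and from 6 to 9 between pH 6.4 and pH 6.9. The median log2 change of the 10 was -2.73 at pH 6.4 and -1.26 at pH 6.9, against -0.000833 and 0.00931 over all tested genes.

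The share of the log2 fall reached at pH 6.9 was above 50% in 6 members and below it in 4, with a median of 55.0%. On the linear scale 8 members had a share above 50%, with a median of 77.1%. Among all 2584 genes called lower at pH 6.4 the median share was 31.1%, with quartiles of 13.2% and 48.5%. Among the 166 that were at least 4-fold lower it was 38.8%, with quartiles of 27.9% and 53.3%. Of these shares, each member's own left out, 81.8% were smaller than that of PRSS35, 92.7% smaller than that of LINC00882 and 99.4% smaller than that of ESR2. For MYH15 the figure was 28.5%, for RANBP3L 29.7% and for RAB17 38.8%. The share of RELN exceeded all of them. ESR2 and RELN are themselves outside the 166 genes, being less than 4-fold lower at pH 6.4. Of the 2584 genes, 35 were, like RELN, lower still at pH 6.9 than at pH 6.4. The members were chosen for large falls in acid medium, which may include pH 6.9, so these ranks are descriptions. The departure of pH 6.9 from the midpoint of pH 6.4 and pH 7.4 on the log2 scale was 0.50 (SE 0.30) for RAB17 and 0.50 (SE 0.23) for MYH15, on the high side, and -0.80 (SE 0.27) for LINC00882 and -0.94 (SE 0.23) for RELN, on the low side. Of all tested genes, edgeR called 0% in either direction against that midpoint, DESeq2 called 102, and 2025 had an unadjusted edgeR p under 0.05.

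**Figure D2:**
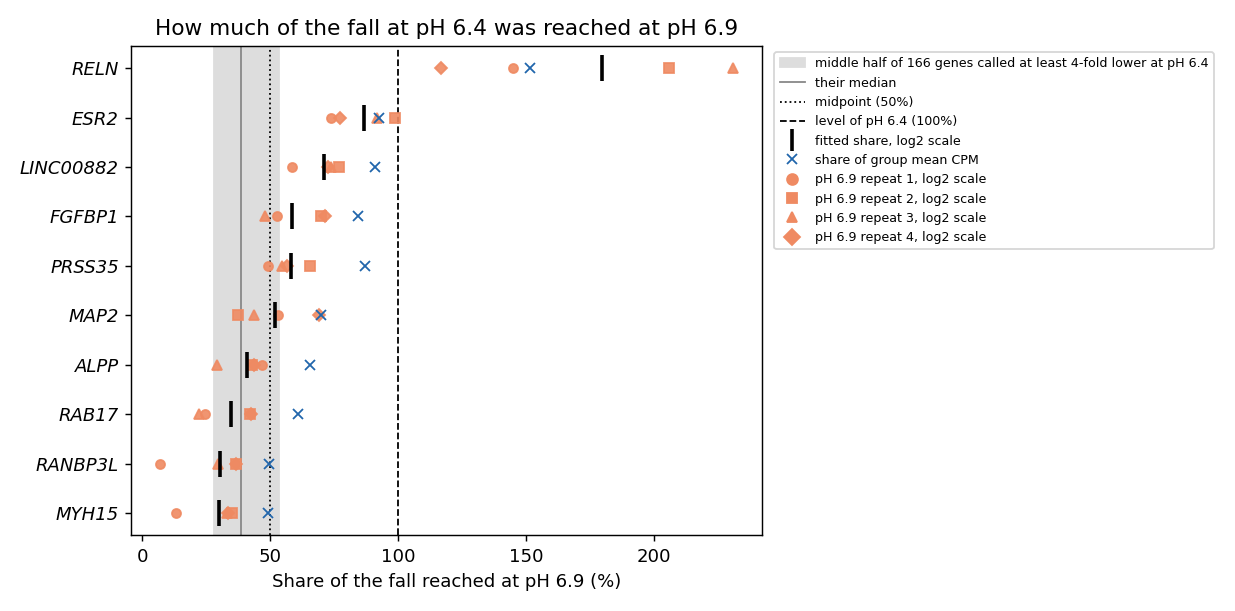
Share of the log2 fall between pH 7.4 and pH 6.4 that was reached at pH 6.9, in percent, for the 10 acid-lowered genes, with a black mark for the fitted value, a point for each of the 4 pH 6.9 libraries and a cross for the share in CPM. Grey shows the quartiles and median of the 166 genes called at least 4-fold lower at pH 6.4, and lines mark 50% and the pH 6.4 level. RELN at 179.7% and ESR2 at 86.5% lie highest, MYH15 at 30.0% and RANBP3L at 30.4% lowest.

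Within pH 6.4 the members did not move together. PRSS35, RAB17, MYH15 and RANBP3L were each highest in repeat 3, next in repeat 1 and lower in repeats 2 and 4. RELN ran the other way, with repeats 2 and 4 above repeats 1 and 3. The TMM scaling factors of the pH 6.4 libraries divided in the same manner, at 0.916 and 0.939 in repeats 2 and 4 and 0.984 and 1.02 in repeats 1 and 3, and their part in the values was not tested. Repeat 3 at pH 6.4 was highest of its medium for 6 of the 10 genes. Without it and repeat 1 of pH 7.4, the share of RAB17 was 26.9%, that of MYH15 24.7% and that of PRSS35 54.1%, and 6 members still had a share above 50%.

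Of the 8 largest falls at pH 6.4 among the called genes with a symbol, at least 5 CPM in the pH 7.4 mean and no overlap between the media, 3 belonged to genes outside the set. HPGD, which inactivates prostaglandins, averaged 0.743 ± 0.630 CPM (SD, n = 4) at pH 6.4, 2.69 ± 1.28 CPM at pH 6.9 and 7.87 ± 1.85 CPM at pH 7.4, a log2 change of -3.39 (adjusted p = 0.000222, edgeR) at pH 6.4. CGN, a protein of tight junctions, changed by -2.91 (adjusted p = 0.000209) and AQP5, a water channel, by -2.84 (adjusted p = 0.000174). The 3 genes were picked by their calls and falls in this same contrast, so these p-values at pH 6.4 restate that choice. At pH 6.9 none of the 3 was called by edgeR, with adjusted p of 0.13 for HPGD, 0.469 for CGN and 0.398 for AQP5. HPGD was called there by DESeq2 (adjusted p = 0.0141) and by edgeR without repeat 3 of pH 6.4 (adjusted p = 0.0287).

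Over the 12 libraries the profile most like that of PRSS35 was that of AKR1B1, aldose reductase, with Pearson's r of 0.991 between log2 CPM values among 13628 genes compared. AKR1B1 averaged 454 CPM at pH 6.4, 901 at pH 6.9 and 2662 at pH 7.4. NADK2 and SOAT1 followed at 0.984 each. The single most alike gene was NADK2 for LINC00882 (0.985), CHN1 for ALPP (0.984) and MAPRE2 for MYH15 (0.995). It was SLC16A13 for RANBP3L (0.987), CPE for MAP2 (0.969), ULBP2 for ESR2 (0.955) and SERPINE2 for RELN (0.931). These values of likeness describe libraries that share 3 media, and genes that change in a similar way across the media score high for that reason alone.

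The genes lie on 7 chromosomes, and their neighbours were compared on GRCh38 with GENCODE release 29. PRSS35 (ENSG00000146250) spans 83512538 to 83525704 on chromosome 6, plus strand. Its neighbour ME1, the cytosolic malic enzyme, which makes NADPH, lies 81.5 kb away and averaged 40.3 CPM at pH 6.4, 53.7 at pH 6.9 and 82.5 at pH 7.4. ME1 fell by 1.03 (SE 0.08, adjusted p = 1.97e-06) at pH 6.4 and by 0.62 (SE 0.08, adjusted p = 0.0016) at pH 6.9 on the log2 scale. SNAP91, 27.2 kb away on the other side, had a log2 change of -0.16 at pH 6.4 (adjusted p = 0.54). LINC00882 (ENSG00000242759), a lincRNA on the minus strand of chromosome 3 from 106836811 to 107240641, begins 0.051 kb from DUBR, another long noncoding RNA, so that DUBR starts within the window printed for LINC00882. DUBR averaged 7.41 CPM at pH 6.4, 18.9 at pH 6.9 and 27.8 at pH 7.4, and fell by 1.90 on the log2 scale (SE 0.21, adjusted p = 4.86e-05) at pH 6.4. At pH 6.9 DUBR changed by -0.55 (SE 0.21, adjusted p = 0.277), where LINC00882 next to it changed by -2.68.

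RANBP3L (ENSG00000164188) occupies 36248434 to 36302114 on the minus strand of chromosome 5, with NADK2, the mitochondrial NAD kinase, 6.16 kb away. NADK2 averaged 50.4 CPM at pH 6.4, 70.0 at pH 6.9 and 116 at pH 7.4. Its log2 change was -1.20 (SE 0.10, adjusted p = 5.47e-06) at pH 6.4 and -0.73 (SE 0.10, adjusted p = 0.00339) at pH 6.9. MLPH, beside RAB17, rose at pH 6.4 by 0.65 (adjusted p = 0.000142), and ORC5, beside RELN, fell by 0.58 (adjusted p = 0.000419). Near RELN and MAP2, PSMC2 (-0.23, adjusted p = 0.0478) and RPE (-0.42, adjusted p = 0.0141) fell and PIKFYVE (0.43, adjusted p = 0.0152) rose at pH 6.4, and near MYH15 IFT57 rose by 0.24 (adjusted p = 0.0378). On the other side of MYH15, 14 kb away, a processed pseudogene without a symbol rose by 1.13 (SE 0.30, adjusted p = 0.0112) at pH 6.4. It averaged 1.98 CPM at pH 6.4 and 0.901 CPM at pH 7.4, and at pH 6.9 it changed by 1.14 (adjusted p = 0.108). The call of PSMC2 was lost in 11 of the 12 fits that left out 1 library and that of IFT57 in 7. Without repeat 2 of pH 6.4, RPE (adjusted p = 0.0508) and PIKFYVE (0.0574) were not called either. Of the 20 nearest tested neighbours 6 were called lower and 4 higher at pH 6.4, against 14.7% and 15.6% of all tested genes, and ME1 and NADK2 alone were called at pH 6.9. The median log2 change of the neighbours at pH 6.4 was -0.20. The pH 6.9 calls of ME1 and NADK2 were lost with repeats 3 and 4 alone (adjusted p of 0.242 and 0.241) and with repeats 1 and 2 alone (0.119 and 0.134). NADK2 was also not called without the 2 libraries with the fewest genes (adjusted p = 0.0605).

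**Figure D3:**
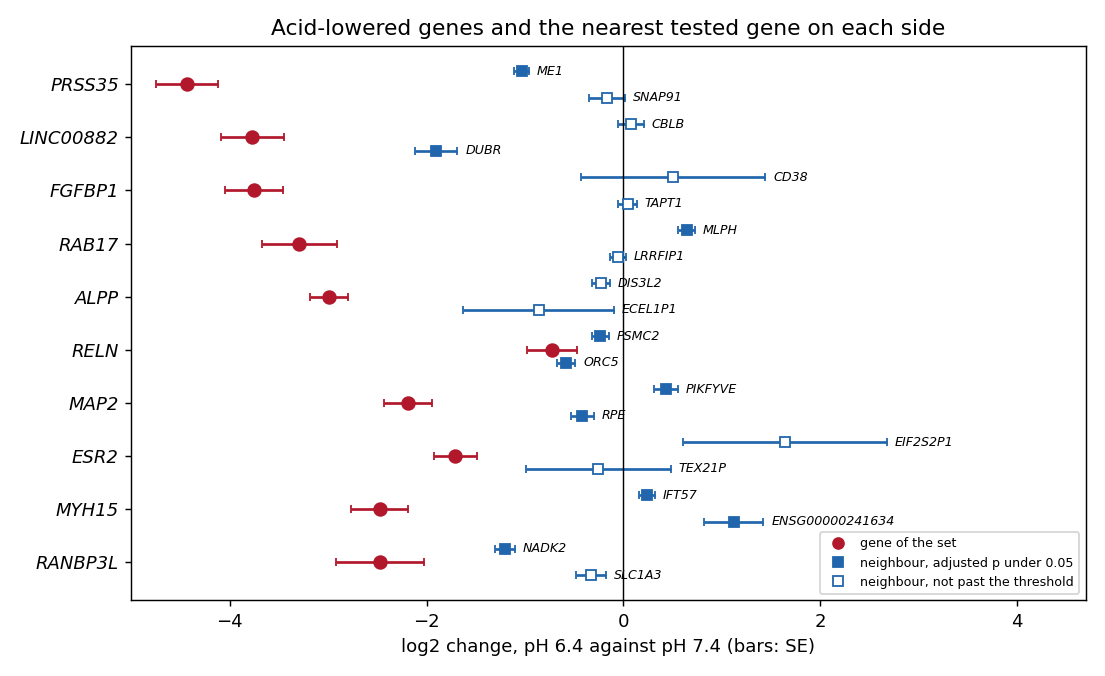
Log2 change of each acid-lowered gene and of its nearest tested neighbour on either side, at pH 6.4 against pH 7.4, with SE bars. DUBR, NADK2 and ME1 lie lowest among the neighbours at -1.90, -1.20 and -1.03, and most others lie near 0.

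Other genes overlap 6 of the members. ESR2 (ENSG00000140009, chromosome 14, 64084232 to 64338112, minus strand) lies opposite SYNE2, which averaged 107 CPM at pH 6.4, 139 at pH 6.9 and 118 at pH 7.4. SYNE2 did not pass the test at pH 6.4 (log2 change -0.15, adjusted p = 0.458) or at pH 6.9 (0.23, adjusted p = 0.571). The sources used here do not state whether reads were counted by strand, so the level of ESR2 is uncertain, and how far SYNE2 enters it was not tested. The genes that overlap LINC00882, RAB17, ALPP, RELN and MAP2 held at most 24 reads in any library. ALPP has the close relatives ALPG and ALPI, which held at most 3 reads in any library. How reads that match more than 1 of these genes entered the counts was not tested.

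Related genes were counted in 9 lists, and edgeR called no gene of them at pH 6.9, where 0.724% of all tested genes were called in either direction. At pH 6.4, 15.6% of all tested genes were called higher and 14.7% lower, the shares against which the counts of each list are to be read. At pH 6.4, the serine proteases and homologues related to PRSS35 had 4 of 13 tested genes higher and 1 lower, with ST14, matriptase, at -0.97 (adjusted p = 0.00343) and PRSS12, neurotrypsin, at 0.89 (adjusted p = 0.00385). PRSS27 (0.93, adjusted p = 0.0378) lost its call in 8 of the 12 fits that left out 1 library, and PRSS53 (0.91, adjusted p = 0.0214) in 2. In the list of fibroblast growth factor binding and signalling, 2 of 11 rose and 2 fell. FGF5 averaged 33.1 CPM at pH 6.4, 14.2 at pH 6.9 and 9.88 at pH 7.4 and rose by 1.74 (adjusted p = 0.000364), whereas FGFBP3, a relative of FGFBP1, fell by 1.36 (adjusted p = 0.00449) and the receptor FGFR4 by 1.15 (adjusted p = 0.00424). Around RAB17, 2 of 15 RAB and traffic genes rose, near the 15.6% of all tested genes, and none fell. They were RAB3B of regulated secretion, at 7.70 CPM at pH 6.4, 1.09 at pH 6.9 and 1.60 at pH 7.4 (log2 change 2.26, adjusted p = 0.003), and the endosomal RAB5B (0.33, adjusted p = 0.0119).

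In the Reelin pathway 5 of 10 tested genes rose and none fell. They included the receptor VLDLR, with 34.6 CPM at pH 6.4, 26.1 at pH 6.9 and 21.5 at pH 7.4 (log2 change 0.68, adjusted p = 0.0024), and the kinases SRC (0.60, adjusted p = 0.000455) and FYN (0.39, adjusted p = 0.00903). The receptor LRP8 (0.32, adjusted p = 0.0355) lost its call in 7 of the 12 fits without 1 library and the adaptor CRKL (0.40, adjusted p = 0.0326) in 5. Of 12 microtubule-associated proteins related to MAP2, 2 rose and none fell: MAPT, tau, by 1.45 (adjusted p = 0.00336) and MAP4 by 0.36 (adjusted p = 0.00609). The list around ESR2 held nuclear receptors, coregulators and other oestrogen-related genes, 8 of them tested. In it GPER1, the membrane oestrogen receptor and so not a nuclear one, fell by 2.12 (SE 0.25, adjusted p = 6.31e-05), with 5.64 CPM at pH 6.4, 13.2 at pH 6.9 and 24.6 at pH 7.4. The corepressor NRIP1 rose by 0.40 (adjusted p = 0.0361), a call lost in 5 of the 12 fits without 1 library. At pH 6.9 GPER1 changed by -0.90 (adjusted p = 0.111), and it was called there by DESeq2 (adjusted p = 0.00941) and by edgeR without repeat 3 of pH 6.4 (adjusted p = 0.0225). ESR1, oestrogen receptor alpha, had at most 14 reads in a library and was not tested.

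Of 9 myosins and light chains related to MYH15, 3 fell and none rose, with MYL9, a regulatory light chain of contractile fibres, at -0.75 (adjusted p = 0.000343). MYL6 (-0.37, adjusted p = 0.0264) lost its call in 3 of the 12 fits without 1 library and MYH10 (-0.31, adjusted p = 0.0398) in 8. In the list of RAN export and SMAD genes around RANBP3L, 2 of 13 rose and 2 fell, with ID2, a target of SMAD signalling, at -1.48 (adjusted p = 0.0318), a call lost in 5 of the 12 fits without 1 library. SMAD5 rose by 0.43 (adjusted p = 0.014), a call lost in 2 of those fits. The alkaline phosphatases ALPG, ALPI and ALPL had too few reads to be tested.

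Several members are known from other cell types, so markers of those types were summed in each library. Mesenchymal-like markers of this line, 8 genes that include VIM, FN1 and CAV1, summed to 8020 to 10330 CPM at pH 6.4, 6875 to 8033 at pH 6.9 and 6676 to 7100 at pH 7.4, with 7 of the 8 called higher and CAV1 called lower at pH 6.4. Luminal breast markers summed to 872 to 1032 CPM at pH 6.4, 1073 to 1262 at pH 6.9 and 1306 to 1638 at pH 7.4, nearly all from KRT8 and KRT18, which were the 2 of 4 tested markers called lower at pH 6.4. The defining luminal genes ESR1, PGR and FOXA1 were below the level needed for a test. The 5 neuron markers summed to 1.51 to 1.84 CPM at pH 6.4, 1.59 to 2.52 at pH 6.9 and 1.80 to 3.54 at pH 7.4, with NEFL at 0 in every library and SYP as the 1 of 2 tested called lower at pH 6.4. The 5 trophoblast markers summed to 1.68 to 4.10 CPM at pH 6.4, 3.50 to 5.59 at pH 6.9 and 3.19 to 5.00 at pH 7.4, with CGA at 0 and HSD3B1 as the 1 of 2 tested called lower. Fibroblast markers summed to 13.5 to 15.4 CPM at pH 6.4, 13.6 to 18.2 at pH 6.9 and 21.4 to 28.5 at pH 7.4, and all 3 that were tested, COL1A1, COL3A1 and LUM, were called lower at pH 6.4. Endothelial markers summed to 6.80 to 9.63, 4.98 to 8.14 and 5.95 to 13.2 CPM at pH 6.4, pH 6.9 and pH 7.4, and leukocyte markers summed to less than 1 CPM in all libraries, with none of their tested genes called. The part of these shifts in the falls of the 10 genes was not tested.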

How the data were processed

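RNA was extracted from MDA-MB-231 cells and, per the labels' protocols, made into 12 stranded poly(A) libraries for a NextSeq500. The authors deposited raw read counts per gene for all 12 libraries in 1 table. The submitters' processing notes name STAR, featureCounts and the build GRCh38.p13 (hg38). Their versions and the strand setting of the counting are not given in these sources.

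These counts entered edgeR 4.0.16 under R 4.3.3. Genes with few reads were removed with filterByExpr, which kept 17544 genes, and libraries were scaled by TMM. All 12 libraries shared 1 fit with a coefficient for each medium (9 residual degrees of freedom), tested by edgeR's robust quasi-likelihood test with Benjamini-Hochberg adjustment over all tested genes, called under 0.05. The common biological coefficient of variation was 0.198. DESeq2 1.42.0, other scalings and filters, a repeat block and left-out libraries were alternatives, and the code was tested on simulated counts.

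The named genes were all 10 members, their nearest tested neighbours and overlapping genes, the genes most alike in log2 CPM (prior count 2, mean of at least 1 CPM), larger falls outside the set among the 8 largest at pH 6.4, and up to 3 called genes per related list. PRSS12, FYN and LRP8, and genes named as marker examples, were named after their values were seen. The members and lists were chosen with earlier results of these data known. Promoter windows come from RefSeq on GRCh38.p14, with all 10 members matched by symbol. No genome sequence was used. The most alike genes of FGFBP1 and RAB17 are not reported here.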

Additional observations from a re-analysis of the deposited data

Results flagged for a closer look

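Among the 30 groups of 4 libraries formed by the 10 genes and 3 media, 2 held a library whose distance to the nearest other one took more of the group's range than Dixon's 95% bound of 0.829 allows, and chance alone gives about 1 such group in 20. MAP2 had 8.13 CPM in repeat 2 at pH 6.4, against 4.49 to 4.63 CPM in the other 3 libraries, a gap of 0.96 of the range. MYH15 had 58.6 CPM in repeat 1 at pH 6.9, against 39.4 to 40.7 CPM in the other 3, a gap of 0.93 of the range.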

How the results depend on the processing

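Over 1120 recomputed values of single members, 1098 moved by less than the spread between libraries, 22 moved further and 0 changed sign where called. With 1 library left out at a time, genes called numbered 3795 to 6411 for pH 6.4 against pH 7.4, 39 to 306 for pH 6.9 against pH 7.4, 1171 to 4944 for pH 6.4 against pH 6.9 and 0 to 1109 for pH 6.9 against the midpoint, and the median share of the fall ran from 51.0% to 56.2%. The high ends of the counts came without repeat 3 of pH 6.4. Main counts were 5321, 127, 2988 and 0. For pH 6.9 against pH 7.4, DESeq2 called 559 genes, the fit without a low-count filter 201, that without the 2 libraries with the fewest genes 20, that with repeats 1 and 2 alone 7 and that with repeats 3 and 4 alone 0. Against the midpoint DESeq2 called 102 and the unfiltered fit 13. Repeats 1 and 2 alone gave 1906 calls between pH 6.4 and pH 6.9, while repeats 3 and 4 alone gave 0 there and 1528 between pH 6.4 and pH 7.4, with fewer libraries in each. Without repeat 1 of pH 7.4 and repeat 3 of pH 6.4, an alternative chosen after seeing the data, the counts were 216 for pH 6.9 against pH 7.4, 6186 for pH 6.4 against pH 6.9 and 1431 against the midpoint. Members called at pH 6.9 numbered 7 in the main fit and 5 to 8 with 1 library left out, 3 without the 2 libraries with the fewest genes, 1 in repeats 1 and 2 and 0 in repeats 3 and 4. Repeats 3 and 4 alone called 8 members for pH 6.4 against pH 7.4 and 0 for pH 6.4 against pH 6.9. On the linear scale the median share was 77.1%. Scaling by library size alone put 40.4% of the calls at pH 6.4 against pH 7.4 on the higher side, against 51.4% with TMM, and 38.2% against 51.9% between pH 6.4 and pH 6.9. Where no cause is visible from fewer libraries or genes, the cause was not tested.

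The repeat numbers were not counted as pairs in the main fit. Even so, 11 of the 12 correlations between same-numbered libraries exceeded 0.1, and the lowest was 0.0798. The main p-values do not take this likeness into account. The repeat block called HPGD (adjusted p = 0.00349), GPER1 (0.00273) and FGFR4 (0.0245) at pH 6.9, and it raised the calls to 947 for pH 6.9 against pH 7.4 and to 5456 for pH 6.4 against pH 6.9. Libraries correlated best with their own number in 18 of 24 comparisons with another medium, a hint from the data and not the design. In repeats 1 and 2 alone the share of the fall was 22.4% for MYH15 and 21.0% for RANBP3L, and in repeats 3 and 4 alone 39.0% and 43.2%. For PRSS35 it was 54.0% and 61.5%. If the intermediate medium had pH 6.7, pH 6.9 libraries compared with the 70% point of an even fall, another alternative chosen after seeing the data, would lie at 0.53 for PRSS35, -0.04 for LINC00882, 1.16 for RAB17 and -0.79 for RELN on the log2 scale. Of 1804 recomputed values of 41 named genes outside the set, 155 lost a call, 9 gained one and 0 reversed. Depth limits the members with the fewest reads, down to 9 for LINC00882 and 11 for RANBP3L in repeat 4 of pH 6.4.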
